A study of Homo sapiens with 40 samples.

Results

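SRGN encodes serglycin, and its transcript was followed in 10 human diffuse large B-cell lymphoma lines treated with an inhibitor of EZH2. The gene was defined as all probe sets whose only annotated symbol is SRGN. This gave 3 probe sets and 1 gene of 19775 genes with a probe set of their own. SRGN was picked with its response to the inhibitor in these arrays already known, so that response is given below as a description, with no test.

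All 10 lines are established cultures of an aggressive tumour of mature B cells. Of these, 7 carry mutant EZH2 (DB, KARPAS-422, Pfeiffer, SU-DHL-4, SU-DHL-6, SU-DHL-10 and WSU-DLCL2) and 3 are wild type for it (HT, OCI-LY-19 and Toledo). Each line received 500 nM GSK126, a selective inhibitor of the histone methyltransferase EZH2, or vehicle (0.1% DMSO) for 72 h. Each combination of line and treatment had 2 arrays of total RNA, 40 altogether. The titles call these arrays biological replicates and give no more on how they were separated, so the spread between them may be partly technical. The labels also give an average growth IC50 (gIC50), a concentration that scores how strongly GSK126 holds back growth. Among mutant lines it was 28 nM for Pfeiffer, 134 nM for WSU-DLCL2, 232 nM for KARPAS-422, 448 nM for SU-DHL-10, 582 nM for SU-DHL-6, 861 nM for DB and 4828 nM for SU-DHL-4. The wild type lines had 516 nM (HT), 1019 nM (OCI-LY-19) and 13786 nM (Toledo). The labels do not give the EZH2 allele, and each genotype is represented by single lines that differ in much else.

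Serglycin is a small proteoglycan of blood cells. Its core protein holds a stretch of serine and glycine repeats, to which long sulphated sugar chains, chondroitin sulphate or heparin, are attached. In granules of mast cells, cytotoxic lymphocytes, neutrophils and platelets these negatively charged chains pack and retain proteases, chemokines and other basic proteins. Serglycin is also secreted, and CD44 is a known binding partner of its chains. EZH2 is the catalytic subunit of Polycomb repressive complex 2, which methylates histone H3 at repressed genes, and an EZH2 inhibitor is used to lower that mark.

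Signals are MAS5 values, which summarise the probes of a set on 1 array and scale that array to a common target. Replicate arrays correlated at 0.982 to 0.989 over the tested genes, and 40 of 40 arrays were nearest to an array of their own line. CD79A, CD79B, PAX5 and CD22, markers of B cells, lay above the array's median signal on all 40 arrays. Of the same list, MS4A1 and BLK did so on 36 arrays and FCRLA on 38. In OCI-LY-19, where the arrays' medians were 80.7 to 88.7, MS4A1 had mean signals of 74.2 under GSK126 and 32.6 in DMSO. BLK had 8.46 under GSK126 and 10.96 in DMSO there. Changes were estimated with limma on log2(signal + 17.7), with 1 mean per line and treatment, and a gene was called at a Benjamini-Hochberg adjusted p under 0.05 over 15211 genes. Errors given as ± are standard errors of that fit unless SD is written. The fit pools the spread of a gene over all 40 arrays, so its standard error is equal in every line and does not show a line's own scatter. In RNA from whole cultures, a change in the share of cells that express a gene and a change in RNA per cell cannot be told apart.

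The 3 probe sets did not measure SRGN equally well. Probe set 201859_at, which had the highest mean and represents the gene, lay above the array's median on 36 of 40 arrays, with signals of 47.5 to 9070. Probe set 201858_s_at did so on 31 arrays, with signals of 3.36 to 2320. The third, 1554676_at, lay below the median on every array, with signals of 1.85 to 54.5, and carries little information on the gene.

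In 4 of the 7 mutant lines SRGN was lower in vehicle than in any other line, and several-fold higher under GSK126. In SU-DHL-10 the signal was 2017 and 2371 on the GSK126 arrays, against 95.3 and 108 on the DMSO arrays. That is a ratio of mean signals of 21.6 and a log2 fold change of 4.21 ± 0.13, the highest of all 15211 genes in that line. KARPAS-422 had 1123 and 828 under GSK126, against 47.8 and 47.5 in DMSO, both below the median signal of their arrays. With the array's median as a floor for the vehicle signal, SRGN was at least 12.6-fold higher under GSK126. The fitted log2 fold change was 3.91 ± 0.13, at place 20 among all genes. It rests on vehicle signals under that floor and was 4.31 with a pseudocount of 1. In both lines SRGN was far above its array's median signal with the inhibitor, and close to that median in vehicle.

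DB and SU-DHL-4 had the same order of arrays with a smaller change. DB gave 1789 and 1942 under GSK126, against 370 and 361 in DMSO, a ratio of 5.11 and a log2 fold change of 2.30 ± 0.13 at place 2 among all genes. The DB vehicle signals lay well above the median signals of their arrays, 69.6 and 67.9. SU-DHL-4 gave 369 and 358 under GSK126, against 68.9 and 56.9 in DMSO, below the array median as in KARPAS-422. With that median as floor SRGN was at least 4.48-fold higher under GSK126. The fitted log2 fold change was 2.24 ± 0.13 (2.52 with a pseudocount of 1), at place 1 among all genes. The level reached under GSK126 in SU-DHL-4 was about the vehicle level of DB. Large changes in several lines were rare but not particular to SRGN. Of 15211 genes, 3 reached a log2 size of 2 in at least 4 lines. These were SRGN in 4 lines, ABAT also in 4 and ANXA4 in 5.

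The other mutant lines held high SRGN before treatment and differed little. Pfeiffer, the line with the lowest gIC50, had 5439 and 5546 under GSK126 and 3443 and 3479 in DMSO, a log2 fold change of 0.66 ± 0.13. WSU-DLCL2 had 6283 and 6711 under GSK126, against 5762 and 5384 in DMSO, a log2 fold change of 0.22 ± 0.13. SU-DHL-6 had 1510 and 1774 under GSK126, against 1268 and 1333 in DMSO, a log2 fold change of 0.33 ± 0.13. The 2 treated arrays lay above the 2 vehicle arrays in each of these lines, by a narrow margin in WSU-DLCL2 and SU-DHL-6.

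In the wild type lines the treated and vehicle signals were close. HT had 8776 and 9070 under GSK126 and 7911 and 8380 in DMSO, the highest signals of any line in either treatment, with a log2 fold change of 0.13 ± 0.13. OCI-LY-19 had 2227 and 2461 under GSK126, against 2551 and 2423 in DMSO, a log2 fold change of -0.09 ± 0.13. Toledo had 687 and 448 under GSK126, against 588 and 591 in DMSO, a log2 fold change of -0.08 ± 0.13. Treated and vehicle arrays overlapped in OCI-LY-19 and Toledo, and the Toledo GSK126 arrays were the most scattered pair of all, with an SD of 0.42 on the log2 scale.

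**Figure D1:**
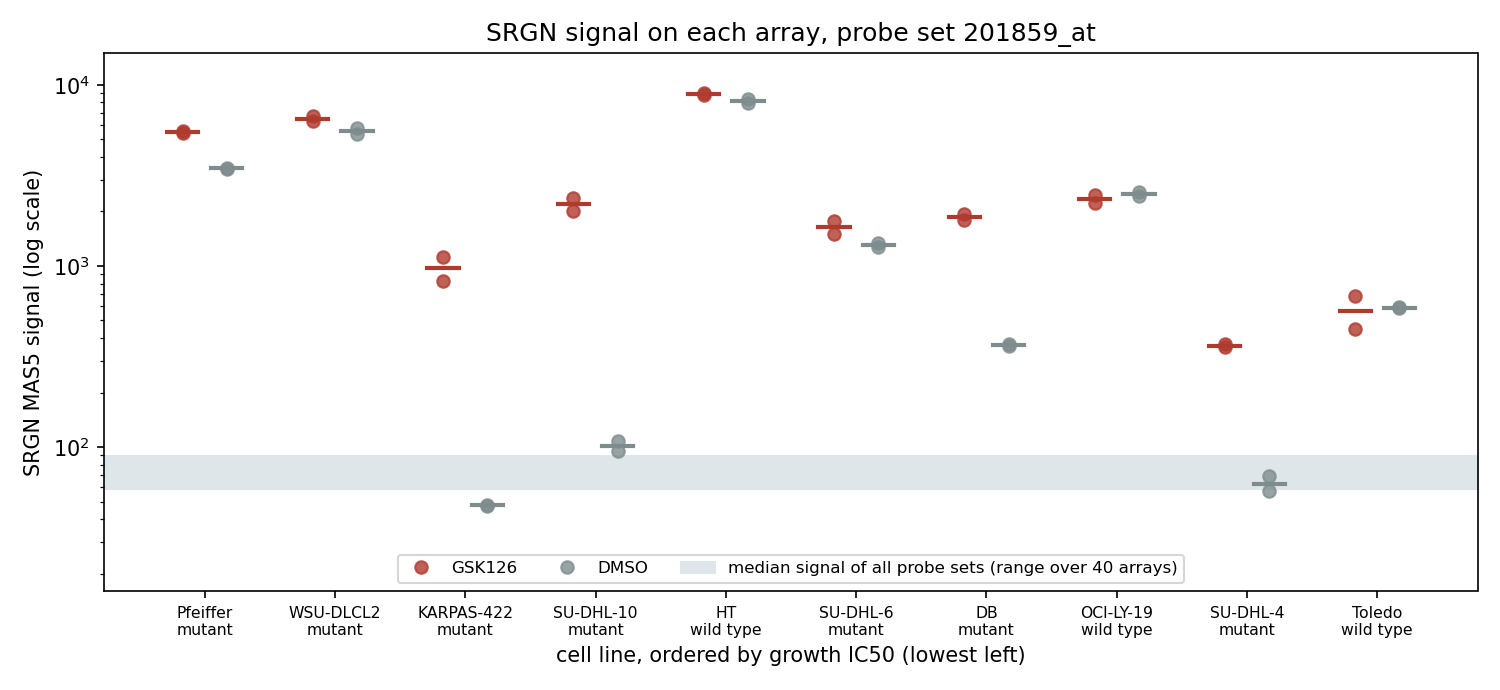
SRGN MAS5 signal (log axis, probe set 201859_at) on each of 40 arrays, with the lines in order of gIC50 and their EZH2 genotype below the name. Points are single arrays, bars are the mean of 2 arrays, and the band is the range of the arrays' median signal, 58.9 to 88.7. In KARPAS-422, SU-DHL-10, DB and SU-DHL-4 the GSK126 points sit several-fold above the DMSO points, and in OCI-LY-19 and Toledo the points overlap.

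Both GSK126 arrays lay above both DMSO arrays in 8 of 10 lines, in 2 lines they overlapped, and in 0 lines did they lie below. The same order was frequent among all genes. It was found for 24% of genes in DB, 29.1% in HT, 31% in KARPAS-422, 36.4% in Pfeiffer, 32.6% in SU-DHL-10, 23.8% in SU-DHL-4, 28% in SU-DHL-6 and 36.5% in WSU-DLCL2. For OCI-LY-19 and Toledo it was 24% and 20.4%. Since SRGN was chosen on these contrasts, nothing is read from its own count.

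The range of SRGN levels over lines was narrower under GSK126 than in DMSO. Under GSK126 the line means spanned 4.55 on the log2 scale, with an SD over lines of 1.49, and in DMSO they spanned 6.96 with an SD of 2.57. The highest line exceeded the lowest by 23.5-fold under GSK126 and by at least 105-fold in DMSO, on the log2(signal + 17.7) scale and with the array's median as floor for the lowest line, KARPAS-422. The mutant lines averaged 10.90 ± 1.41 under GSK126, against 8.92 ± 2.64 in DMSO (SD, n = 7 lines). The wild type lines averaged 11.16 ± 1.98 under GSK126, against 11.18 ± 1.88 in DMSO (SD, n = 3 lines). The mean log2 fold change was 1.98 ± 1.65 in the mutant lines (SD, n = 7) and -0.01 ± 0.12 in the wild type lines (SD, n = 3). Among mutant lines it covered 0.22 to 4.21, so that the 2 genotypes adjoin at its lower end: WSU-DLCL2 at 0.22 and HT at 0.13.

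The order of lines changed with treatment. Under GSK126 the log2 levels ran from HT (13.13), WSU-DLCL2 (12.67), Pfeiffer (12.43) and OCI-LY-19 (11.20) through SU-DHL-10 (11.11), DB (10.88) and SU-DHL-6 (10.69). KARPAS-422 (9.94), Toledo (9.16) and SU-DHL-4 (8.57) were lowest. The arrays of OCI-LY-19 and SU-DHL-10 overlapped. WSU-DLCL2 and Pfeiffer, SU-DHL-10 and DB, and DB and SU-DHL-6 were neighbours whose means were less than 2 standard errors apart. That error is pooled over lines, and the GSK126 arrays of Toledo (SD 0.42) and KARPAS-422 (SD 0.31) scattered more than it shows. In DMSO the order was HT (12.99), WSU-DLCL2 (12.45), Pfeiffer (11.76), OCI-LY-19 (11.29), SU-DHL-6 (10.36), Toledo (9.25), DB (8.58), SU-DHL-10 (6.90), SU-DHL-4 (6.33) and KARPAS-422 (6.03). No neighbouring lines overlapped there, and the closest, SU-DHL-4 and KARPAS-422, were 2.28 standard errors apart. The 4 lines with the lowest vehicle levels were the 4 with a fold change of at least 4. The fold change and the vehicle level share the DMSO arrays, so no correlation between them is given.

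**Figure D2:**
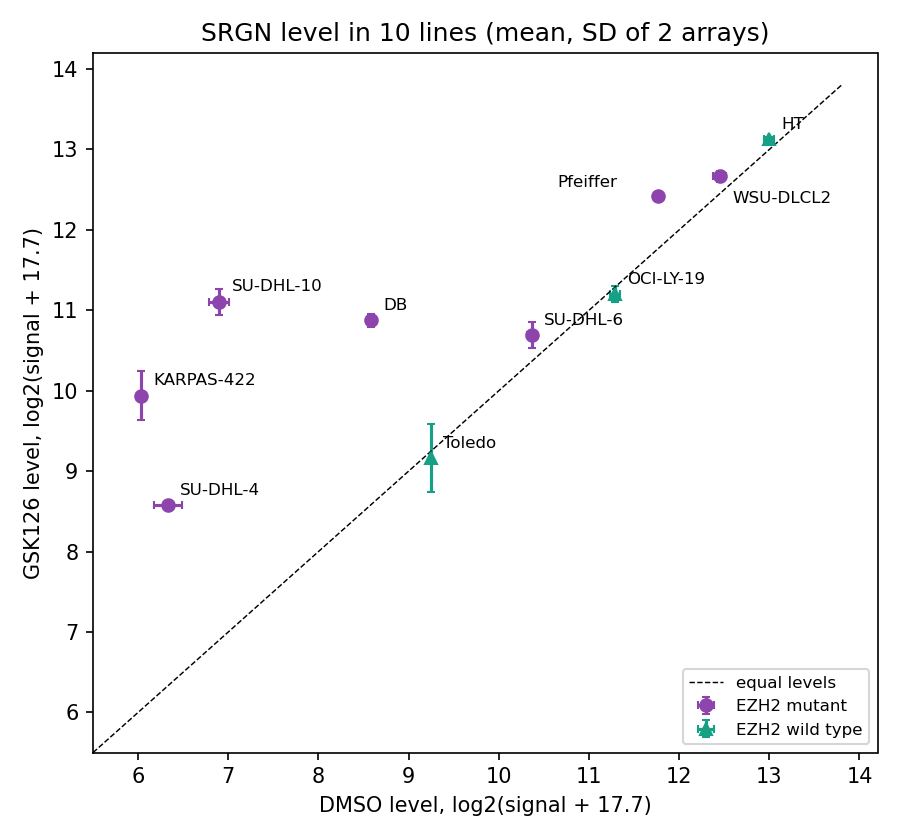
SRGN level under GSK126 (vertical) against the level in DMSO (horizontal) in each line, both as log2(signal + 17.7), with means and SD of 2 arrays. Circles are EZH2 mutant and triangles wild type lines, and the dashed line marks equal levels. SU-DHL-10, KARPAS-422, DB and SU-DHL-4 lie far above the dashed line, and HT, OCI-LY-19 and Toledo lie on or near it.

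Another probe set gave similar values in most lines. Over 10 lines the log2 fold changes of 201858_s_at and 201859_at correlated at r = 0.97 and rho = 0.88, and their vehicle levels at r = 0.99. Both read the same arrays, so this is agreement between probes and not a repeat of the experiment. By 201858_s_at, KARPAS-422 had 249 and 233 under GSK126, against 4.95 and 3.36 in DMSO, a log2 fold change of 3.57 ± 0.31. SU-DHL-10 had 297 and 392 under GSK126, against 41.9 and 7.29 in DMSO, a log2 fold change of 3.22 ± 0.31. The vehicle signals of this probe set were below the array median in both lines, and its ratios therefore depend strongly on the added 17.7.

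The same probe set gave 2.70 ± 0.31 in DB, 1.69 ± 0.31 in SU-DHL-4, 0.99 ± 0.31 in Pfeiffer and 0.45 ± 0.31 in HT. In WSU-DLCL2 it gave 0.26 ± 0.31, in SU-DHL-6 0.18 ± 0.31 and in OCI-LY-19 -0.18 ± 0.31. The DMSO signals of this probe set were below the array median in DB (14.7 and 58.1) and SU-DHL-4 (5.23 and 4.04) too. So was the SU-DHL-4 signal of GSK126 replicate 2 (37.2). These ratios therefore also depend on the added 17.7. The sign was shared in 9 of 10 lines. Toledo differed, with 0.39 ± 0.31 by 201858_s_at and -0.08 ± 0.13 by 201859_at. The dim 1554676_at did not follow either, with r = -0.14 to the response of 201859_at.

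**Figure D3:**
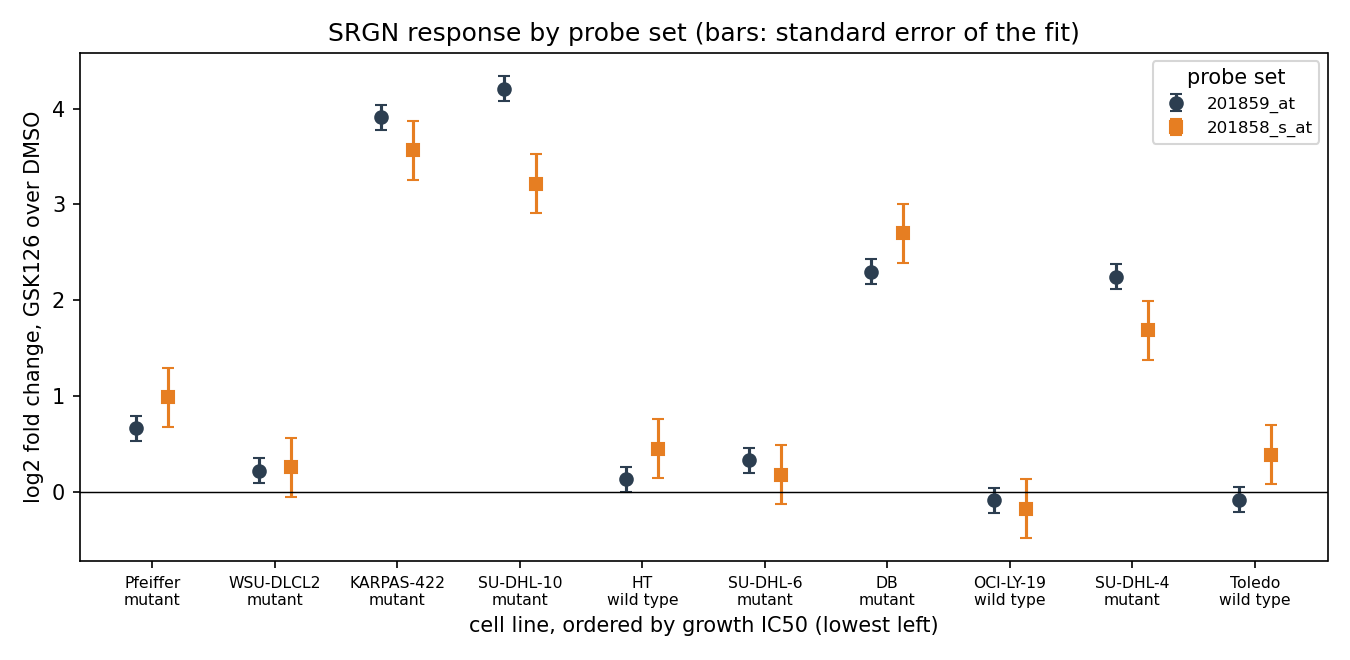
Log2 fold change of SRGN, GSK126 over DMSO, in each line by 2 probe sets (circles 201859_at, squares 201858_s_at), with bars of 1 standard error of the fit. KARPAS-422, SU-DHL-10, DB and SU-DHL-4 lie between 1.69 and 4.21 by either probe set and every other line at or below 0.99, and the signs differ in Toledo.

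Whether SRGN differed between genotypes before treatment was tested on the vehicle arrays, with the line as replicate. The same DMSO arrays enter the response on which SRGN was picked, so this test is not independent of that choice. The mutant lines had 8.92 ± 2.64 and the wild type lines 11.18 ± 1.88 (SD, n = 7 and 3), a difference of -2.26 ± 1.49 on the log2 scale. It did not pass (limma, adjusted p = 0.764), and an exact two-sided permutation test over the 120 ways to place the genotypes gave p = 0.208, where the smallest possible was 0.00833. Of all genes, 8 passed this comparison (0.0526%), and 1184 had an unadjusted p under 0.05. The difference was smaller without HT (-1.35) and larger without Toledo (-3.23). An R tag in the labels, whose meaning is not given, split the lines into 3 sets. The difference was -0.35 within tag 6 (2 mutant lines, 1 wild type), -4.43 within tag 7 (4 and 1) and -0.93 within tag 8 (1 and 1). With so few lines, a difference of this size could not be separated from the spread between lines.

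SRGN showed no clear order with growth sensitivity. Over 10 lines its log2 fold change had r = -0.09 and rho = -0.36 with log10 of the gIC50. Without Toledo and Pfeiffer, the lines farthest from the median, these were r = 0.0055 and rho = -0.24. Its vehicle level had r = -0.36 and rho = -0.28 with log10 of the gIC50. These are descriptions of 10 points with no test. Side by side, Pfeiffer with a gIC50 of 28 nM had a log2 fold change of 0.66 and SU-DHL-4 with 4828 nM had 2.24, while SU-DHL-10 (448 nM) and HT (516 nM) had 4.21 and 0.13.

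The balance of higher and lower genes depends on how arrays are scaled, so SRGN was also read with all arrays at equal median signal. The log2 fold changes of all genes then moved by a median of -0.25 in SU-DHL-10, -0.24 in WSU-DLCL2, -0.18 in SU-DHL-6, -0.17 in KARPAS-422, -0.15 in Pfeiffer and -0.14 in Toledo, and by less than 0.1 in size in the other lines. SRGN had 3.97 in SU-DHL-10, 3.81 in KARPAS-422, 2.34 in DB and 2.25 in SU-DHL-4 under that scaling. WSU-DLCL2 changed sign to -0.03, and SU-DHL-6 dropped to 0.14.

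The next question was whether the enzymes that build serglycin's chains moved with it. Chain assembly starts with xylose on the core's serines (XYLT1, XYLT2), goes on through a shared linker, and then takes a chondroitin or a heparan route, each with its own sulphotransferases. The lists below are read against the share of all 15211 genes called in each line. It was 11% risen and 7.16% fallen in SU-DHL-10. KARPAS-422 had 15.5% and 13.4%, DB 2.5% and 0.618%, and SU-DHL-4 2.14% and 0.454%. Pfeiffer had 14.6% risen and 9.93% fallen, SU-DHL-6 7.42% and 3.56%, and WSU-DLCL2 13.9% and 12.7%. Among wild type lines HT had 6.31% risen and 3% fallen, OCI-LY-19 1.97% and 0.44%, and Toledo 0.138% and 0.0263%. These shares are for signals scaled as deposited. The shares with arrays at equal medians are not given here, so nothing is read from list counts under that scaling.

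Of 22 genes of the chondroitin route, 18 were tested. In SU-DHL-10, 5 of the 18 rose and 0 fell, with a median log2 fold change of 0.15 against 0.06 over all genes, and at equal medians 1 rose and 2 fell. CHST15, which adds a further sulphate to chondroitin chains, rose there by 1.41 ± 0.23 (limma, adjusted p = 4.44e-05), with mean signals of 510 under GSK126 and 182 in DMSO. CHST12, a chondroitin 4-O-sulphotransferase, rose by 0.62 ± 0.15, and XYLT1 rose by 0.54 ± 0.13. The XYLT1 call was lost without GSK126 replicate 2 (0.44, adjusted p = 0.0623), at equal medians (0.29, adjusted p = 0.137) and with the mean of its probe sets (0.023). That of CHST12 was lost at equal medians (0.38, adjusted p = 0.0779) and with the line fitted alone (adjusted p = 0.0628).

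In KARPAS-422, 5 of the 18 rose and 1 fell. CHST12 rose by 1.21 ± 0.15, with mean signals of 233 under GSK126 and 93.6 in DMSO, and CHST15 rose by 1.22 ± 0.23, with a dim signal of 62.1 under GSK126 and 17.6 in DMSO and a call lost with the line fitted alone (adjusted p = 0.0914). DB had 1 risen member, CHSY1 (0.53 ± 0.12), a chondroitin polymerase. SU-DHL-4 had 0 in either direction. Both counts are near the share of all genes called in these lines, so nothing is read from them.

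CHST12 and XYLT1, though not CHST15, were also called in lines where SRGN differed by less than 1 on the log2 scale. CHST12 rose in HT (1.18 ± 0.15), WSU-DLCL2 (0.84 ± 0.15) and Pfeiffer (0.77 ± 0.15), and XYLT1 rose in Pfeiffer (0.92 ± 0.13) and HT (0.61 ± 0.13). XYLT1 also rose in KARPAS-422 (0.70 ± 0.13). With the line fitted alone, the XYLT1 call in Pfeiffer was lost (adjusted p = 0.0512). CHSY1 fell in WSU-DLCL2 (-0.80 ± 0.12). XYLT2, CHPF (a partner of the chondroitin polymerases) and CHST11 (a chondroitin 4-O-sulphotransferase) passed in 0 of 10 lines, though CHST11 passed in SU-DHL-10 once GSK126 replicate 2 was left out (-1.52). Over all lines, 20 of 180 gene and line pairs of the route rose (11.1%) and 6 fell (3.33%), where 7.55% and 5.13% of all pairs did. With arrays at equal medians the split was 12 risen and 11 fallen, for which the share of all pairs is not given.

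Of 17 genes for the heparan route and for sulphate supply, 12 were tested. In SU-DHL-10, 5 rose and 2 fell, with a median log2 fold change of 0.47 against 0.06 over all genes, and at equal medians 1 rose and 3 fell. SLC26A2, a sulphate transporter, rose by 0.63 ± 0.09, with mean signals of 846 under GSK126 and 539 in DMSO, and HS6ST1, a heparan 6-O-sulphotransferase, rose by 0.51 ± 0.13. The HS6ST1 call was lost at equal medians (0.27), with the mean of its probe sets (0.42) and with the line fitted alone (adjusted p = 0.0654). EXT1, a heparan polymerase, rose by 0.67 ± 0.22, a call lost without any 1 of the 4 arrays of the line (adjusted p = 0.101 to 0.130). HS2ST1, the heparan 2-O-sulphotransferase, fell by 0.61 on the log2 scale, with mean signals of 3234 under GSK126 and 4947 in DMSO. PAPSS1, which makes the activated sulphate donor, fell by 0.40 on that scale. Sulphation genes of this line thus moved both ways.

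Elsewhere SLC26A2 rose in KARPAS-422 (1.06 ± 0.09), DB (0.33 ± 0.09) and HT (0.30 ± 0.09). HS6ST1 and EXT1 rose in KARPAS-422 (0.80 ± 0.13 and 0.90 ± 0.22), calls lost with the mean of probe sets (0.35 and 0.50), that of EXT1 also without DMSO replicate 2 or GSK126 replicate 2. NDST1, which trims and sulphates heparan chains, rose in SU-DHL-6 (1.02 ± 0.23), a call lost without DMSO replicate 1, with the line fitted alone and with the mean of its probe sets (-0.028). It also rose in the wild type OCI-LY-19 (1.01 ± 0.23), a call lost without DMSO replicate 1 (0.59) or either GSK126 replicate, with the line fitted alone and with the mean of its probe sets (0.27). SU-DHL-4 had EXT2, the partner of EXT1, risen by 0.32 ± 0.08 and HS2ST1 fallen (-0.26 ± 0.06). EXT1, EXT2 and HS2ST1 were also called where SRGN differed by less than 1 on the log2 scale. EXT1 rose in WSU-DLCL2 (0.80), HT (0.70) and Pfeiffer (0.67). EXT2 rose in HT (0.67), SU-DHL-10 (0.44), SU-DHL-6 (0.40) and Pfeiffer (0.37), and fell in KARPAS-422 (-0.25). HS2ST1 fell in Pfeiffer (-0.71) and WSU-DLCL2 (-0.55) and rose in KARPAS-422 (0.24). Over all lines 23 of 120 pairs rose (19.2%) and 7 fell (5.83%), where 7.55% and 5.13% of all pairs did. With arrays at equal medians 8 rose and 11 fell, for which the share of all pairs is not given.

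**Figure D4:**
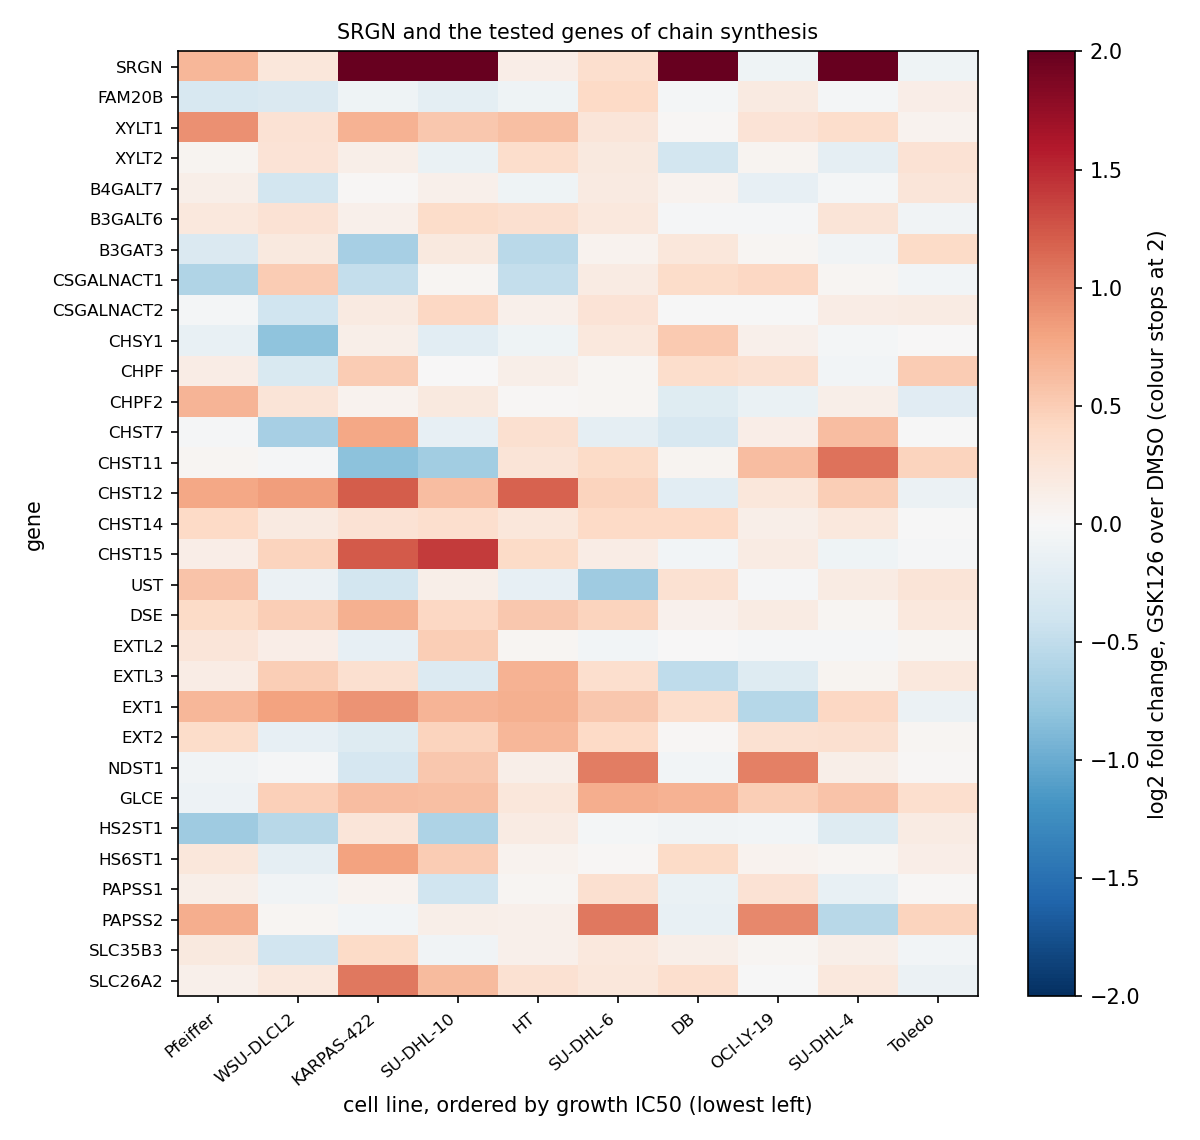
Log2 fold change, GSK126 over DMSO, of SRGN (top row) and the 30 tested genes of the chondroitin and heparan routes in 10 lines ordered by gIC50, with colours stopping at 2. SRGN is dark red in KARPAS-422, SU-DHL-10, DB and SU-DHL-4. The chain genes are paler and mixed in direction, with CHST15 strongest in SU-DHL-10 and KARPAS-422.

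Serglycin's known cargo was mostly dim or not called. Of 26 cargo and granule genes, 13 were tested, and the others, GZMK and CCL3 among them, were too dim or not analysed here. In SU-DHL-10, 1 rose and 1 fell. LYZ, lysozyme, rose by 1.54 ± 0.45 (limma, adjusted p = 0.0155), with mean signals of 75.3 under GSK126 and 15.4 in DMSO. That call was lost without DMSO replicate 2 (adjusted p = 0.173) or GSK126 replicate 1 (0.105), with a pseudocount of 1 (0.0808) and with the line fitted alone (0.0580). VEGFA fell by 0.41 on the log2 scale there, a call lost without any 1 of the 4 arrays (adjusted p = 0.0988 to 0.204). The granule proteases GZMA and GZMB, the pore-forming PRF1 and the metalloprotease MMP9 passed in 0 of 10 lines, although MMP9 passed in SU-DHL-10 without GSK126 replicate 1 (0.95).

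KARPAS-422 had cytokine genes going the other way from SRGN. TNF fell by 2.40 on the log2 scale, with mean signals of 1144 under GSK126 and 6114 in DMSO. VEGFA fell by 1.66 (353 under GSK126, 1152 in DMSO) and the chemokine gene CCL4 fell by 1.50 (736 under GSK126, 2114 in DMSO). TNF also fell in HT (-0.89 ± 0.22) and WSU-DLCL2 (-0.71 ± 0.22), lines where SRGN hardly differed, and CCL4 rose in Pfeiffer (1.10 ± 0.30). VEGFA fell in HT (-0.92 ± 0.15), WSU-DLCL2 (-0.90 ± 0.15) and Pfeiffer (-0.64 ± 0.15) too, the HT call being lost with the line fitted alone and that in Pfeiffer with the mean of its probe sets (-0.21). In SU-DHL-6 VEGFA rose by 0.47 ± 0.15, a call lost at equal medians (0.29), with the mean of its probe sets (0.28), with the line fitted alone, and without DMSO replicate 1 (0.30) or either GSK126 replicate. DB and SU-DHL-4 had 0 called cargo genes in either direction. Over all lines 3 of 130 pairs rose (2.31%) and 11 fell (8.46%), where 7.55% and 5.13% of all pairs did.

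Among the other proteoglycan cores and serglycin's partner CD44, 22 of 31 genes were tested. SU-DHL-10 had 1 risen, GPC4, a cell surface heparan sulphate proteoglycan, by 1.50 ± 0.31, with mean signals of 2554 under GSK126 and 894 in DMSO. VCAN, a large matrix chondroitin sulphate proteoglycan, rose in Pfeiffer (1.71 ± 0.32), SPOCK1, a secreted proteoglycan, in KARPAS-422 (1.76 ± 0.41) and AGRN, a basement membrane proteoglycan, in SU-DHL-6 (1.45 ± 0.32). The AGRN call was lost without DMSO replicate 2 (0.88), with the mean of its probe sets (0.050) and with the line fitted alone (adjusted p = 0.141). SDC1, a syndecan, fell in KARPAS-422 (-0.92 ± 0.22). CD74, the invariant chain, which can carry chondroitin sulphate, rose in OCI-LY-19 (0.55 ± 0.07), Pfeiffer (0.36 ± 0.07) and WSU-DLCL2 (0.29 ± 0.07). CD44 passed in 0 lines. Its value was 1.38 ± 0.40 in DB (limma, adjusted p = 0.0541), with mean signals of 248 under GSK126 and 85.3 in DMSO. Over all lines 22 of 220 pairs rose (10%) and 1 fell, where 7.55% and 5.13% of all pairs did. At equal medians 14 rose and 4 fell, for which the share of all pairs is not given.

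The genes beside SRGN on chromosome 10 were taken from RefSeq's gene order, with 5 protein-coding genes on each side, of which 8 were tested (HKDC1 and TACR2 were too dim). The adjacent genes are KIFBP, a kinesin binding protein, on one side and VPS26A, part of the retromer, on the other. In SU-DHL-10, KIFBP fell by 0.41 on the log2 scale (639 under GSK126, 857 in DMSO) and VPS26A had 0.05 ± 0.05. In KARPAS-422, VPS26A rose by 0.22 ± 0.05 and KIFBP had -0.15 ± 0.10. VPS26A passed in no other line, with values of -0.10 (OCI-LY-19) to 0.13 (HT). KIFBP also fell in SU-DHL-6 (-0.50 ± 0.10) and WSU-DLCL2 (-0.38 ± 0.10). The KIFBP call in SU-DHL-10 was lost without DMSO replicate 1 or GSK126 replicate 1, and that in SU-DHL-6 without GSK126 replicate 1, and both were lost with the line fitted alone (adjusted p = 0.0585 and 0.383). In KARPAS-422, SU-DHL-10, DB and SU-DHL-4, where SRGN had 2.24 to 4.21, KIFBP had -0.41 to 0.11 and VPS26A -0.05 to 0.22.

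STOX1, a winged-helix gene and the fourth from SRGN, rose in SU-DHL-10 (1.31 ± 0.22), DB (1.25 ± 0.22) and SU-DHL-6 (0.88 ± 0.22). In SU-DHL-10 its mean signals were 48.3 under GSK126 and 8.57 in DMSO, and in DB 133 under GSK126 and 45.6 in DMSO. With SU-DHL-10 fitted alone the call was lost (adjusted p = 0.0923). KARPAS-422 had 0.07 ± 0.22 for STOX1, with 599 under GSK126 and 580 in DMSO. HK1, hexokinase 1, rose in Pfeiffer (1.09 ± 0.20), where SUPV3L1, a mitochondrial RNA helicase, fell (-0.33 ± 0.10), a call lost without either DMSO replicate or GSK126 replicate 2. Over all lines 5 of 80 neighbour pairs rose (6.25%) and 7 fell (8.75%), where 7.55% and 5.13% of all pairs did. With arrays at equal medians 16 fell. The share of all genes that fell under that scaling is not given here, so nothing is read from this count.

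The genes whose fold changes over the 10 lines were most like those of SRGN were ranked by Pearson's r among 3513 genes with a change of at least 1 on the log2 scale in some line. The median r was 0.09, 22 genes reached 0.8 and 1 gene reached 0.9. The points share arrays and, since 4 lines carry the SRGN pattern, r rests mainly on those lines. IGLL1, an immunoglobulin light chain-like gene of the pre-B cell receptor, had the highest r, 0.93, with log2 fold changes of 1.70 in KARPAS-422, 1.55 in DB, 1.47 in SU-DHL-10 and 0.97 in SU-DHL-4. It belongs to a locus of near-identical copies, so its probe set may read more than 1 gene, and its SU-DHL-10 call was lost without DMSO replicate 1 or GSK126 replicate 1. ACP6 (r = 0.85), an acid phosphatase, had 2.01 ± 0.10 in SU-DHL-10, with mean signals of 564 under GSK126 and 127 in DMSO, and KARPAS-422 had 1.86.

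Besides these, LOC100507053 and RALGAPA2 reached r = 0.88, DNAJC22, TEX9, ZDHHC23 and TEAD2 r = 0.87, and ANKFN1 and PURA r = 0.85. TEAD2 had 1.14 in SU-DHL-10, but 0.37 in KARPAS-422, 0.02 in SU-DHL-4 and -0.08 in DB. Its SU-DHL-10 response did not hold in 9 alternative settings, and that of DNAJC22 in 3. All 10 had their highest value in KARPAS-422 or SU-DHL-10. The lowest r were those of PRKAR1AP1 (-0.91), SPAG6 (-0.90), OR2H2 (-0.88), TRIM29 (-0.82) and FYB2 (-0.82). Leaving out 1 line at a time, the lowest r among the 10 was 0.75, without SU-DHL-10. Of the 10, 8 were again among the first 10 after quantile normalization, 6 with arrays at equal medians, 7 with a pseudocount of 1 and 2 when each gene's probe sets were averaged.

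**Figure D5:**
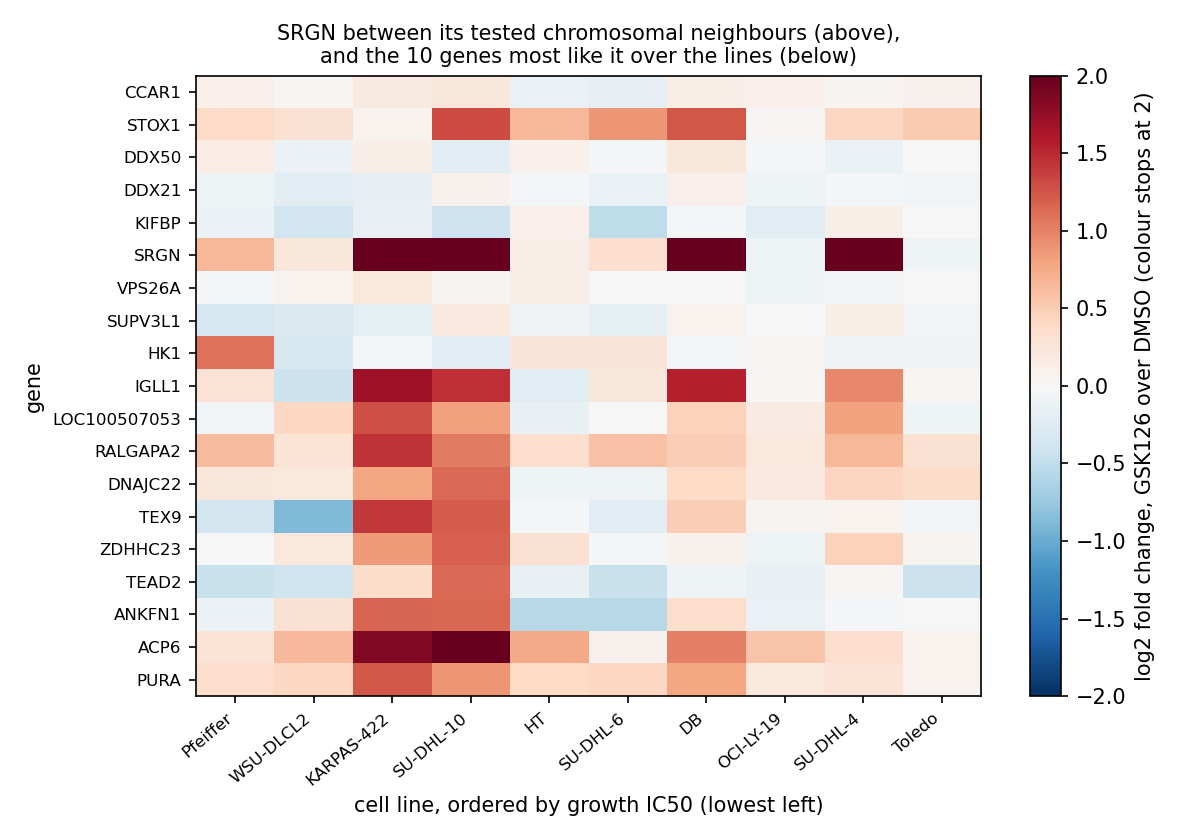
Log2 fold change, GSK126 over DMSO, in 10 lines ordered by gIC50, with colours stopping at 2. The upper rows are SRGN between its 8 tested neighbours in chromosomal order, and the lower rows the 10 genes with the highest r to SRGN. The adjacent KIFBP and VPS26A are pale where SRGN is dark red, and IGLL1 and ACP6 are red in KARPAS-422, SU-DHL-10 and DB.

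Because serglycin is abundant in myeloid cells, mast cells, platelets and cytotoxic lymphocytes, markers of these cells were set beside it. Of 8 myeloid markers on the array, CD14, S100A8, S100A9, CD163 and MPO exceeded the array's median on at most 1 of 40 arrays. The same held for KIT, CPA3, TPSAB1, PF4 and PPBP of 9 mast cell and megakaryocyte markers. In SU-DHL-10 the summed myeloid signal was 269 to 369 under GSK126, against 178 to 262 in DMSO, and LYZ alone of that list was called. In KARPAS-422 it was 136 to 227 under GSK126, against 296 to 367 in DMSO. CSF1R (-1.13 ± 0.42) and ITGAM (-1.51 ± 0.35) fell there, where 13.4% of all genes fell. These sums are dim, since they run over 8 genes and the median signal of a probe set was 58.9 to 88.7 over the 40 arrays. Of the myeloid list 3 genes were tested, and 1 of 30 pairs rose (3.33%) and 2 fell (6.67%). Of the mast cell and megakaryocyte list, 4 genes were tested and 0 of 40 pairs passed in either direction. Of all gene and line pairs, 7.55% rose and 5.13% fell. Its sum in SU-DHL-10 was 308 to 418 under GSK126, against 270 to 279 in DMSO.

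Of 10 T and NK cell markers, CD2 and NKG7 exceeded the median on at most 1 array, and 1 marker exceeded it on every array. Some were bright in single lines. In Pfeiffer, CD8A had mean signals of 14612 under GSK126 and 12954 in DMSO, and CD247 had 4629 and 4836. The sum of the 10 markers in SU-DHL-10 was 1074 to 1209 under GSK126, against 1361 to 1459 in DMSO. CD247 alone had mean signals of 533 under GSK126 and 894 in DMSO there. The median log2 fold change of the 8 tested markers in SU-DHL-10 was 0.24, against 0.06 over all genes. For KARPAS-422 the sum was 9560 to 10343 under GSK126, against 12720 to 13849 in DMSO, with a median log2 fold change of -0.31. CD247 fell in both lines (-0.73 ± 0.15 and -0.72 ± 0.15). Of 80 pairs of this list, 1 rose (1.25%) and 2 fell (2.5%), where 7.55% and 5.13% of all pairs did. Stromal and epithelial markers summed to 1066 to 1097 under GSK126, against 886 to 978 in DMSO, in SU-DHL-10. In KARPAS-422 they summed to 19305 to 22268 under GSK126, against 15676 to 16070 in DMSO, with a median log2 fold change of 0.69 over the 8 tested. Of their 80 pairs 9 rose (11.25%) and 0 fell, where 7.55% and 5.13% of all pairs did. All 9 were of DCN, ACTA2 and SPARC in Pfeiffer, WSU-DLCL2, KARPAS-422 and SU-DHL-6. The part of these markers in the SRGN values was not tested.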

How the data were processed

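The authors deposited 1 table of log2 MAS5 signals for 54675 probe sets on 40 arrays. MAS5 is named in the submitters' processing notes, without a version. Back on linear scale, each array averaged 500 once the highest and lowest 2% of probe sets were dropped. No detection calls were used, dim MAS5 values scatter widely on a log scale, and the small number of arrays limits precision.

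Values were brought back to linear signals and analysed as log2(signal + 17.7), the added value being the median over arrays of the 25th percentile, and fold changes on this scale understate those of dim genes. Symbols came from the platform annotation, which can be old: 41091 probe sets had 1 symbol, 1801 several and 11721 none, and 62 were controls. A RefSeq table of assembly GRCh38.p14 matched 41037 of them and was used for names and gene order only. Each gene was read from the brightest of its single-symbol probe sets. Genes under the array's median on all arrays or on all but 1 were left out, so that 15211 of 19775 were tested.

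limma 3.58.1 in R 4.3.3 fitted 20 group means with moderated variances and an intensity trend (20 residual and 6.98 prior degrees of freedom). Tests were two-sided, with Benjamini-Hochberg adjustment across the whole set of tested genes. The genotype comparison used the mean vehicle level of each line. The code was tested on simulated data. SRGN, the gene lists and the tests were chosen with earlier results of these data known, so counts over the lists are not independent evidence. Genes named from a list were up to 3 per direction with the strongest called change in SU-DHL-10, up to 4 over all lines, and a set named whatever its values. Some further members were named after their values were seen. The lower bounds for SRGN take the array's median signal as floor and were added after seeing the data. The 10 genes with the highest and 5 with the lowest r to SRGN were named.

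Alternatives were the SRGN probe set, scaling, pseudocount, filter, a fit of each line alone, a block for the replicate number, and leaving out each array or line.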

Additional observations from a re-analysis of the deposited data

How the results depend on the processing

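The number of arrays limits every value, and SRGN vehicle signals near the array median make the high fold changes depend on the pseudocount. With a pseudocount of 1, SRGN had 4.42 in SU-DHL-10, 4.31 in KARPAS-422 and 2.52 in SU-DHL-4. With none it had 4.43, 4.34 and 2.54 in these lines. Quantile normalization gave 3.69 in KARPAS-422. With arrays at equal medians it was -0.032 in WSU-DLCL2, -0.23 in Toledo, 0.14 in SU-DHL-6, 0.51 in Pfeiffer and 3.97 in SU-DHL-10. The mean of all 3 probe sets gave 2.55 in SU-DHL-10, 2.43 in KARPAS-422, 1.60 in DB, 1.25 in SU-DHL-4, 0.39 in Pfeiffer, 0.21 in Toledo and 0.077 in SU-DHL-6. By 201858_s_at KARPAS-422 had 3.57 and SU-DHL-10 3.22, and it was 2.70 in DB, 1.69 in SU-DHL-4, 0.99 in Pfeiffer, 0.45 in HT, 0.39 in Toledo and 0.18 in SU-DHL-6. The dim 1554676_at gave 0.54 in WSU-DLCL2, -0.49 in Pfeiffer, -0.28 in SU-DHL-6, -0.19 in KARPAS-422, DB, SU-DHL-4 and HT, 0.22 in SU-DHL-10, 0.18 in OCI-LY-19 and 0.31 in Toledo. Leaving out 1 array, SRGN ranged over 4.09 to 4.33 in SU-DHL-10, 3.69 to 4.12 in KARPAS-422, 2.24 to 2.35 in DB, 2.14 to 2.35 in SU-DHL-4 and 0.65 to 0.68 in Pfeiffer. The ranges were 0.21 to 0.44 in SU-DHL-6, 0.17 to 0.27 in WSU-DLCL2, 0.09 to 0.17 in HT, -0.16 to -0.01 in OCI-LY-19 and -0.38 to 0.22 in Toledo. The cause of these shifts was not tested. The vehicle difference between genotypes passed under no alternative. It was -2.16 with the R tag as a block (limma, adjusted p = 0.829) and -3.23 to -1.35 leaving out 1 line (adjusted p = 0.632 to 0.969). Without Toledo and Pfeiffer, the response had r = 0.0055 and rho = -0.24 with log10 gIC50, and the vehicle level had r = -0.33 and rho = -0.12. The vehicle r was -0.37 after quantile normalization, -0.38 at equal medians and -0.35 with a pseudocount of 1.

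Same-numbered arrays did not deviate together (r = -0.04 to 0.07, over 0.1 in 0 of 10 lines), so the numbers do not pair the samples. A replicate block left the SRGN values as they were, lost the EXT1 call in SU-DHL-10 (adjusted p = 0.0617) and gave 2 fallen pairs of other cores over 10 lines, against 1. At equal medians the counts of list calls in SU-DHL-10 were 1 risen and 2 fallen for the chondroitin route, 1 risen for the heparan route, 1 fallen for other cores and 2 fallen for neighbours. Over 10 lines they were 12 risen and 11 fallen for the chondroitin route, 8 and 11 for the heparan route, 14 and 4 for other cores, and 16 fallen for neighbours. The shares of all genes called under this and the other alternatives are not given here, so nothing is read from these counts. With each line fitted alone, SU-DHL-10 had 2 risen in either route and 0 risen and 0 fallen neighbours, and the 10 lines had 11 risen for the heparan route, 2 fallen for other cores and 3 fallen for neighbours. With the mean of all probe sets, SU-DHL-10 had 1 fallen for the chondroitin route, 3 risen for the heparan route, 4 risen for cargo and 2 risen neighbours, and cargo had 7 risen over 10 lines. A pseudocount of 1 gave cargo 0 risen and 0 fallen in SU-DHL-10 and 7 fallen over 10 lines. Quantile normalization gave 0 fallen for cargo in SU-DHL-10 and 2 fallen for other cores over 10 lines. Without the filter these were also 0 and 2, with 2 risen for other cores in SU-DHL-10. Leaving out 1 array, SU-DHL-10 had 3 to 5 risen and 0 to 1 fallen for the chondroitin route, 4 to 5 and 2 for the heparan route, 0 to 1 and 0 for cargo, 1 to 2 risen for other cores, and 1 to 2 and 0 to 1 for neighbours. Over 10 lines the ranges were 19 to 22 and 3 to 8, 21 to 24 and 6 to 7, 2 to 5 and 8 to 13, 17 to 23 and 1 to 3, and 4 to 6 and 4 to 7 in the same order. Some named genes changed sign, and of these NDST1 in SU-DHL-6 alone had been called (-0.028 with the mean of all probe sets). In SU-DHL-10, XYLT2 had 0.43 and CHST11 0.34 with that mean, CHPF had -0.082 and VCAN -0.13 after quantile normalization, and at equal medians CHPF had -0.23, CD74 -0.21 and VCAN -0.12. Leaving out 1 array of that line, values ran from -1.52 to 0.13 for CHST11, -0.086 to 0.11 for CHPF, -0.35 to 1.06 for CD44, -0.17 to 0.36 for VCAN, -0.078 to 1.34 for GZMA, -1.07 to 0.11 for GZMB and -0.36 to 0.22 for CCL4. PRF1 (0.92) and MMP9 (0.67) passed in SU-DHL-10 with the mean of all probe sets.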
